A study of Mus musculus with 15 samples.

Results

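CT2A and 005 are mouse glioma lines that grow as tumors in the brain of immunocompetent C57BL/6 mice. Bulk RNA from end-stage CT2A tumors (n = 3 mice) was compared here with bulk RNA from end-stage 005 tumors (n = 3 mice), over all genes. These 6 samples are all the CT2A and 005 samples among the 15 of the series, which also holds GL261 and Mut3 tumors and naive brain (3 samples of each). Naive brain served as the background level. The other tumors entered the filter, the scaling and the estimate of the spread between mice, and were the reference for the chromosome levels. Each host was 6 to 8 weeks old and received 100000 tumor cells in the brain. Brains were perfused and taken at the humane end-point. All implanted lines carried GFP and firefly luciferase. The study describes CT2A as a carcinogen-induced line with wild-type p53, cultured in serum. It describes 005 as driven by activated H-ras and AKT in p53-heterozygous cells, cultured without serum in medium with EGF and FGF. Each model is therefore a single line, and model, driver and culture medium cannot be told apart. The tumor pieces hold cancer cells together with the immune, vascular and brain cells of the host.

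Interferons are cytokines that switch on overlapping programs in nearly every cell. Type I interferon acts through a complex of STAT proteins and IRF9 that binds the interferon-stimulated response element and induces antiviral genes such as the Ifit family. Interferon-gamma, made by T and NK cells, acts through STAT dimers and induces CIITA, the master regulator of MHC class II genes, together with guanylate-binding proteins and the chemokine CXCL9. In gliomas, mesenchymal tumors express collagens and factors such as Twist1 and Snai2, whereas proneural tumors express progenitor factors such as Olig2 and Sox11.

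Depth was 7246421 to 8825088 counts per sample in CT2A and 8523676 to 13130158 in 005. Mki67, a proliferation marker, was at 62.0, 82.3 and 76.0 CPM (counts scaled to library size) in CT2A and at 63.3 and 94.3 CPM in 005 samples 1 and 2, but at 7.90 CPM in the library labelled 005 sample 3. Naive brain had 1.89 to 3.06 CPM of this gene, so 1 of the 6 tumor samples was near naive brain in this marker. The third 005 sample also had 17.8% mitochondrial counts, against 3.48% to 7.59% in the other 5 samples and 15% to 24% in naive brain. Its distance to the naive samples in log2 CPM was 141.3 to 149.7, less than its distance of 189.6 and 216.1 to the other two 005 samples. The main results are therefore given with and without 005 sample 3. The second 005 sample stood apart in the other direction, with the highest level of Ptprc (CD45, the marker of all white blood cells) at 261 CPM, against 46.2 and 50.1 CPM in the other two 005 samples and 19.5 to 37.4 CPM in CT2A. Ptprc itself was lower in CT2A in every sample and did not pass the test (log2 fold change −1.92 ± 0.68 SE, edgeR adjusted p = 0.112).

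A gene was called when its edgeR adjusted p was under 0.05 and its change at least 2-fold. Of 17481 genes tested, 371 (2.12%) were higher and 348 (1.99%) were lower in CT2A than in 005, 4.11% together. The shares of 2.12% and 1.99% are the background for the counts of called list members below. Without 005 sample 3, 390 genes (2.13%) were higher and 400 (2.19%) were lower, of 18300 tested (4.32% together). The shares were 1.52% and 1.54% without 005 sample 2, where 278 and 282 genes were called. The lists with and without 005 sample 3 shared 278 genes higher in CT2A, which is 74.9% of the first list and 71.3% of the second, and 224 genes lower in CT2A, which is 64.4% and 56.0%. The median log2 fold change of all tested genes was −0.23 with all samples and −0.02 without 005 sample 3. With library size in place of TMM scaling it was −0.35. The counts were lowest without CT2A sample 2, where 152 genes were called higher and 37 lower, and without CT2A sample 3, where 142 and 41 were. Without CT2A sample 1 they were 304 and 290. Among the genes named here, the calls of higher genes were kept more often. Of the 37 named genes called higher, 23 were called in all 6 fits that left out 1 sample, and of the 42 named genes called lower, 7 were. Leaving out CT2A sample 2 ended 46 of these 79 calls and leaving out CT2A sample 3 ended 45. Where a gene below is said to be called throughout, it was called in all 6 of these fits.

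**Figure D1:**
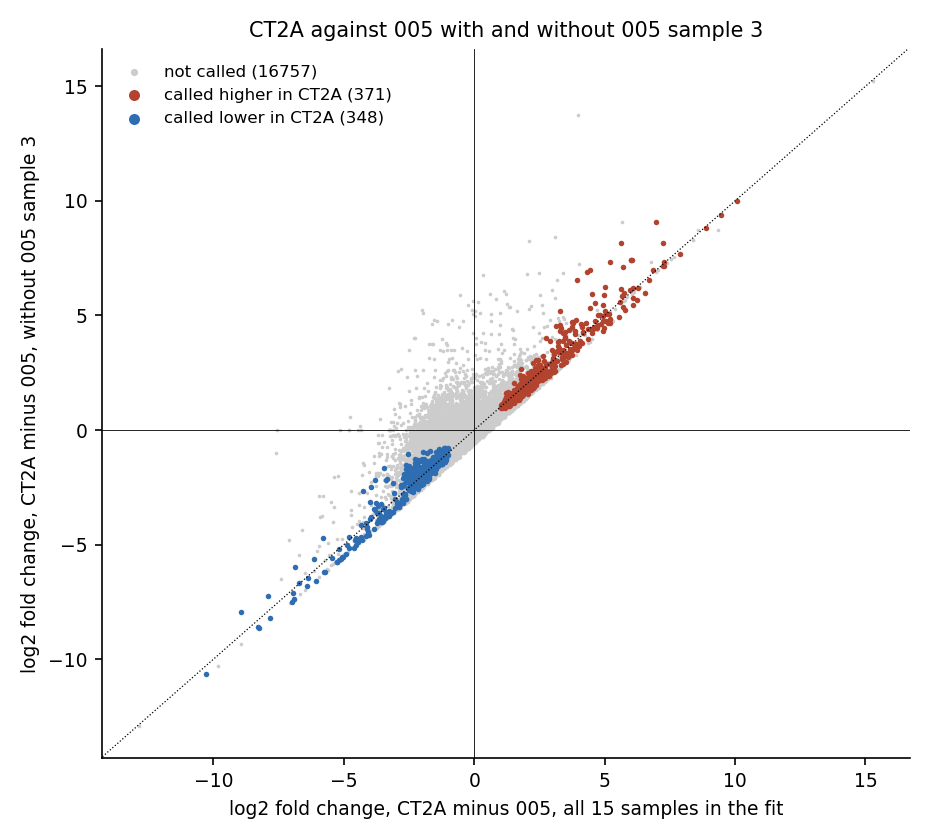
Log2 fold change of CT2A minus 005 for each tested gene, with all samples in the fit (horizontal axis) and without 005 sample 3 (vertical axis). Red points are the 371 genes called higher and blue points the 348 called lower with all samples, and grey points were not called. The dotted line marks equal values. The called genes lie near the line, while many grey points lie above it.

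Of the 15 named genes with the largest increase in CT2A, Coro2a and Adh7 had the highest levels. Coro2a encodes a coronin, an actin-binding protein, and lies on the minus strand of chromosome 4 (chr4:46536937-46602202, GRCm38). It was at 612, 897 and 977 CPM in the CT2A samples and at 3.19, 7.48 and 5.20 CPM in the 005 samples, near the level of naive brain (5.41 to 6.12 CPM). The log2 fold change was 7.29 ± 0.63 (SE, adjusted p = 1.77e-05). Adh7, a class IV alcohol dehydrogenase that oxidizes retinol (chr3:138217760-138233382, plus strand), was at 438, 532 and 638 CPM in CT2A and at 10.6, 9.30 and 3.99 CPM in 005. Its log2 fold change was 6.08 ± 0.51 (adjusted p = 1.60e-05), and both genes were called throughout. Capn6, a calpain without protease activity, was at 67.0, 94.2 and 102 CPM in CT2A and at 1.03 to 1.57 CPM in 005. Nxf3, of the RNA export factor family, was at 46.4, 61.3 and 49.9 CPM in CT2A and at 0.362 to 1.44 CPM in 005. The groups were far apart for both, with log2 fold changes of 5.99 ± 0.58 and 5.66 ± 0.46.

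Several genes with restricted adult expression were read in every CT2A sample and hardly at all in 005. Olfr805, an olfactory receptor gene (chr10:129721221-129729375, minus strand), had 15.4, 22.7 and 14.5 CPM in CT2A and no count in any 005 sample. Against a floor of 3 counts per sample it was at least 48.3-fold higher in CT2A. Hoxc10, a homeobox gene of posterior body patterning, was at 7.08, 10.4 and 10.5 CPM in CT2A, and the 005 samples held 1 to 3 counts together, a ratio of 148 with an exact 95% counting interval of 40.3 to 1226. Plac1, a placental gene, was at 37.9 to 72.7 CPM in CT2A and 0.285 to 4.12 CPM in 005 (log2 fold change 4.96 ± 0.81). Plag1, a zinc finger factor of fetal growth, was at 15.3 to 41.6 and 0.121 to 1.85 CPM (5.00 ± 0.98), but its adjusted p was 0.056 without CT2A sample 3. The remaining genes of this set were Dynap, Slc22a29 (an organic anion transporter), Tmem45a, Fam110c, Lgals7 (galectin 7), Sfrp4 (a secreted Wnt inhibitor) and Ptgfr (the prostaglandin F receptor), with log2 fold changes of 4.92 to 7.25. Of these, Slc22a29 lost its call without CT2A sample 3 (adjusted p = 0.0592). Reads of olfactory receptors, organic anion transporters and other large gene families can be shared between near-identical copies, so their levels are less certain.

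The mesenchymal and matrix list held 38 genes, of which 37 were tested, 8 were called higher in CT2A (2.12% of all tested genes were) and none was called lower. Its median log2 fold change was 0.69, against −0.23 for all genes, and 14 of its members were higher in every CT2A sample than in every 005 sample (12.6% of all tested genes were), while 2 were lower in every CT2A sample (13% of all tested genes). Leaving out 005 sample 3 gave 6 called higher and 1 lower. Col3a1, the chain of fibrillar collagen III, was at 348, 551 and 533 CPM in CT2A and at 13.7, 36.5 and 30.5 CPM in 005, a log2 fold change of 4.15 ± 0.69 (adjusted p = 0.00525). Loxl2, which cross-links collagen, was at 44.6, 49.5 and 69.2 CPM in CT2A and at 9.89, 13.04 and 10.5 CPM in 005, the range of naive brain (2.29 ± 0.38). These genes did not overlap between the models and were called throughout. Twist1 and Snai2 are transcription factors of the epithelial-mesenchymal program. Twist1 was at 14.3, 18.0 and 14.5 CPM in CT2A and at 1.96, 2.78 and 0.926 CPM in 005 (3.05 ± 0.56). Snai2 was at 5.17 to 9.94 CPM in CT2A and 0.427 to 0.618 CPM in 005 (3.89 ± 0.76), and its adjusted p was 0.0536 without CT2A sample 2. Sparc, a matricellular protein, was higher in all 3 CT2A samples without passing the test (1.02 ± 0.32, adjusted p = 0.0848). Cd44, the hyaluronan receptor, overlapped between the models, at 245 to 373 CPM in CT2A and at 289, 289 and 58.5 CPM in 005.

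Type I interferon-stimulated genes also leaned to CT2A. All 46 members were tested, 6 were called higher and none lower, and the median log2 fold change was 0.96. In 18 of the 46, every CT2A sample was above every 005 sample, which held for 12.6% of all tested genes. With 005 sample 3 left out, 4 members were called and the median was 0.70. Without 005 sample 2, the sample with the most Ptprc, 16 were called and the median was 1.83. In bulk tissue a lower level can mean fewer cells of a type or less RNA per cell, and these cannot be told apart. Ifit1, an RNA-binding antiviral protein, was at 167, 242 and 286 CPM in CT2A, at 19.98, 48.0 and 14.1 CPM in 005 and at 5.48 to 13.9 CPM in naive brain. Its log2 fold change was 3.08 ± 0.52 (adjusted p = 0.00530). Ifit3 was at 229, 359 and 383 CPM in CT2A and at 34.3, 83.1 and 43.6 CPM in 005 (2.59 ± 0.50). Its neighbor Ifit3b was at 45.8, 81.7 and 78.2 CPM in CT2A and at 7.31, 15.8 and 12.2 CPM in 005 (2.54 ± 0.48). All 3 Ifit genes were called throughout, although reads of Ifit3 and Ifit3b may be split between the near-identical copies. Rsad2 (viperin), which blocks viral replication, was at 61.5, 26.2 and 23.1 CPM in CT2A and at 4.12, 8.81 and 1.57 CPM in 005 (2.95 ± 0.61). Its adjusted p was 0.0511 without CT2A sample 1, which held its highest level. The other called members, named after their values were seen, were Bst2 (tetherin, which holds budding virus at the cell surface), with a log2 fold change of 2.02 ± 0.46, and Rtp4, with 1.92 ± 0.51. Without 005 sample 3 their adjusted p values were 0.0549 and 0.0920.

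The promoters of these genes were read for the core letters of the interferon-stimulated response element (GAAA, any 2 bases, then GAAA) on both strands, in windows from 250 bases before to 50 bases after the start of each RefSeq gene (GRCm38.p6). The element was present in 16 of the 32 type I interferon-stimulated genes with a window (50.0%), in 3.44% of all 32851 windows and in 3.99% of all 27025 genes with one. It was also present in 10 of 18 interferon-gamma list members (55.6%), in 1 of 10 MHC class II genes and in 1 of 25 mesenchymal genes, so the letters were about as frequent in both interferon lists. Of the 6 called members, 5 had a window and all of these 5 held the element, while Rtp4 had none to read. A match describes letters and is not evidence of a bound factor. The element was not particular to the called members, since uncalled members such as Isg15, Oas1a and Stat2 held it too. The stretches of the 5 called members that held it are shown. They are given 5′ to 3′ on the strand of the gene with the element in capitals. An element on the opposite strand reads TTTC, any 2 bases, then TTTC.
Ifit1 (chr19:34640760-34640838, plus strand): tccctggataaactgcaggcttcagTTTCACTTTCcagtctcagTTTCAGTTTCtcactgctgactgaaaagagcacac
Ifit3 (chr19:34583348-34583441, plus strand): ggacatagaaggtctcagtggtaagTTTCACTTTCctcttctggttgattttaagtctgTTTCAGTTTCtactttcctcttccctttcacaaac
Ifit3b (chr19:34607744-34607837, plus strand): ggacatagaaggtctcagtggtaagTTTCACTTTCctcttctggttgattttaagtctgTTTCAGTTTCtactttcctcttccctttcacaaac
Rsad2 (chr12:26456538-26456597, minus strand): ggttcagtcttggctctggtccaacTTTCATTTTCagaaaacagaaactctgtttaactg
Bst2 (chr8:71537562-71537627, minus strand): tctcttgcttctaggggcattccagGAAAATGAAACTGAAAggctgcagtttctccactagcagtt

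Ifit1, Ifit3 and Ifit3b each held 2 copies of the element upstream of the start. The 94 bases shown for Ifit3 and Ifit3b are the same. Rsad2 held 1 copy, and in Bst2 the 2 copies overlap.

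The list of interferon-gamma-induced GTPases and regulators gave no edgeR calls among 26 members, 11 of which were lower at an unadjusted p under 0.05, while the DESeq2 Wald test called 3 lower. The median log2 fold change was −1.23. It was −1.66 with 4 members called lower in CT2A once 005 sample 3 was left out, and 0.04 with none called once 005 sample 2 was. Gbp2, a guanylate-binding protein, was at 236, 229 and 255 CPM in CT2A and at 471, 2463 and 157 CPM in 005, so the groups overlapped and 1 mouse carried most of the difference. Its log2 fold change was −2.10 ± 0.77 (adjusted p = 0.122). It was −2.58 and called without 005 sample 3 (adjusted p = 0.0362), and −0.39 without 005 sample 2.

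Of the 13 MHC class II presentation genes, all were tested and 9 were called lower in CT2A (1.99% of all tested genes were) and none higher, with a median log2 fold change of −2.34. Leaving out 005 sample 3 gave 10 called lower. The direction held in each sample for 11 of the 13, whose 3 CT2A values lay below all 005 values, which 13% of all tested genes did. H2-Aa, the class II alpha chain (chr17:34282744-34287823, minus strand), was at 140.2, 254 and 239.6 CPM in CT2A, at 701, 3816 and 759 CPM in 005 and at 37.7 to 47.8 CPM in naive brain. The CT2A samples lay between naive brain and 005, and the log2 fold change was −3.06 ± 0.78 (adjusted p = 0.0425). H2-Eb1, a class II beta chain, was at 27.4, 25.5 and 38.2 CPM in CT2A and at 107, 935 and 162 CPM in 005 (−3.72 ± 0.77). H2-Ab1 was at 31.6, 48.0 and 58.0 CPM in CT2A and at 159, 1156 and 179 CPM in 005 (−3.44 ± 0.79). H2-DMb2, which helps load peptide, fell by 2.19 on the log2 scale (SE 0.53). Ciita itself, named after its values were seen, had 0.366, 0 and 0.775 CPM in CT2A and 1.55, 19.6 and 3.92 CPM in 005 (−4.35 ± 1.08, adjusted p = 0.0444). These calls were not firm. Without 005 sample 2, 1 of the 13 was called and the median was −1.73, and without any 1 of the CT2A samples none was called. The adjusted p of H2-Aa reached 0.148 in these fits and that of Ciita 0.157.

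MHC class I genes had few calls. Of 23 members, 1 was called higher in CT2A and none lower, and the median log2 fold change was 0.10. Leaving out 005 sample 3 gave 1 called higher and 3 lower (median −0.08), and leaving out 005 sample 2 gave 3 higher and none lower (median 0.57). B2m, the light chain of all class I molecules, was at 8353, 11458 and 12828 CPM in CT2A and at 5745, 9826 and 2129 CPM in 005 (0.88 ± 0.54, adjusted p = 0.318). The called member was H2-Q6, a nonclassical class I gene, at 56.7, 68.3 and 86.3 CPM in CT2A and at 11.8, 26.8 and 8.76 CPM in 005 (2.16 ± 0.49). It lost its call without 005 sample 1 or without CT2A sample 2 or 3 (adjusted p of up to 0.113), and the close copies of this locus can share reads. H2-M2, another nonclassical class I gene outside the list (chr17:37480851-37483552, minus strand), went the other way. It was at 0.244, 0.310 and 0.258 CPM in CT2A, the level of naive brain, and at 9.68, 224 and 28.8 CPM in 005 (−8.26 ± 1.41). It was called throughout, at −6.08 without 005 sample 2.

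**Figure D2:**
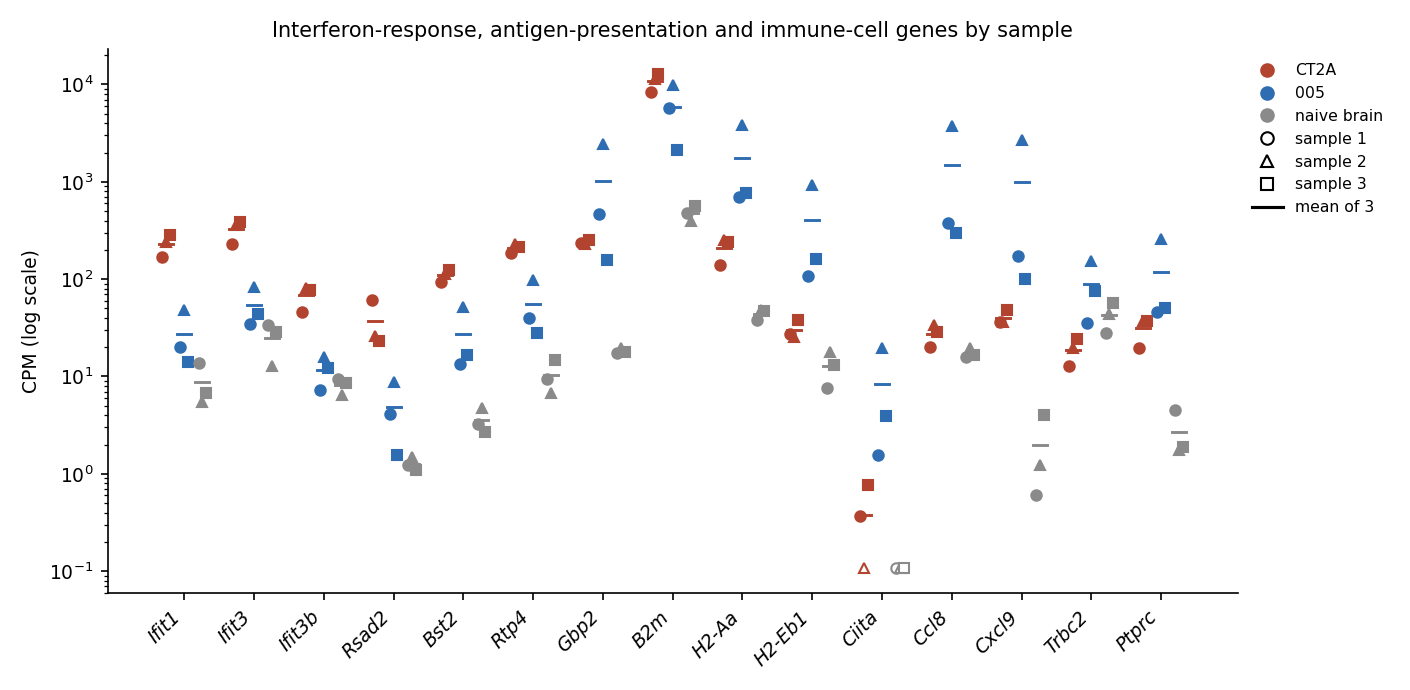
CPM on a log axis of interferon, antigen-presentation and immune-cell genes in each CT2A (red), 005 (blue) and naive brain (grey) sample. The symbol gives the sample number, lines mark means of 3 and open symbols mark values of 0. The Ifit genes, Rsad2, Bst2 and Rtp4 lie higher in every CT2A sample, while H2-Aa, H2-Eb1, Ciita, Ccl8 and Cxcl9 lie higher in every 005 sample, most of all in 005 sample 2.

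Among the 27 genes of the chemokine list, 26 were tested, 1 was called higher and 4 were called lower in CT2A, with a median of −1.10. The median was −0.70 without 005 sample 3, with 1 called higher and 5 lower, and −0.18 without 005 sample 2. Ccl8, which draws monocytes through CCR2 and other receptors, was at 20.1, 33.8 and 28.5 CPM in CT2A, near naive brain (15.7 to 19.4 CPM), and at 382, 3751 and 299.5 CPM in 005. It was lower by −5.75 ± 0.95 on the log2 scale (adjusted p = 0.00471) and was called throughout, at −3.63 without 005 sample 2. Cxcl9, which draws T cells through CXCR3, was at 35.9, 36.2 and 48.6 CPM in CT2A and at 174, 2706 and 101 CPM in 005 (−4.63 ± 1.15, adjusted p = 0.0379). Both groups were above naive brain (0.612 to 4.06 CPM) for this gene, and without 005 sample 2 the change was −1.77 (adjusted p = 0.148). Ccl6 (−3.38 ± 0.63) and the receptor Cxcr6 (−2.22 ± 0.55) were the other lower members, with adjusted p values of up to 0.063 and 0.147 when 1 sample was left out. Ccl25, a ligand of CCR9, was the higher one, at 33.5, 38.7 and 30.1 CPM in CT2A and at 9.37, 7.85 and 9.11 CPM in 005 (1.95 ± 0.43, adjusted p = 0.0564 without 005 sample 2). Its annotated span overlaps that of Elavl1, so part of its reads may belong to that gene. Cxcl10, the other main CXCR3 ligand, differed by −0.78 ± 0.75 and overlapped between the models. In contrast to Cxcl9, its value turned to 1.34 without 005 sample 2 (adjusted p = 0.127).

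Markers of myeloid cells leaned to 005. The monocyte and macrophage list had 3 of 27 tested members called lower and none higher (median −0.89), and 5 called lower without 005 sample 3. Without 005 sample 2, 1 member was called lower and the median was −0.20, near the −0.18 of all tested genes in that fit. Apoe, the lipid carrier made by macrophages and astrocytes, was at 519.9, 413 and 511 CPM in CT2A and at 931, 1866 and 1651 CPM in 005 (−1.62 ± 0.30, adjusted p = 0.00930). It was called in 5 of the 6 fits that left out 1 sample, with an adjusted p of 0.0646 without CT2A sample 2. Mrc1, the mannose receptor CD206, was at 7.33, 11.6 and 9.82 CPM in CT2A and at 38.3, 68.5 and 17.6 CPM in 005 (−2.11 ± 0.47). Its call held in 2 of the 6 fits that left out 1 sample (adjusted p of up to 0.108). Lyz2, lysozyme of myeloid cells, was at 647, 562 and 934 CPM in CT2A and at 1838, 10059 and 1405 CPM in 005 (−2.63 ± 0.68), and without 005 sample 2 it differed by −1.18 (adjusted p = 0.151). The summed level of the list was 4358 to 5908 CPM in CT2A and 10372, 18610 and 4190 CPM in 005, so 005 sample 3 lay below all 3 CT2A samples.

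Homeostatic microglia genes were not called by edgeR in either direction (0 of 17, median −0.96, and −0.43 without 005 sample 3), with 7 lower at an unadjusted p under 0.05 and 2 called lower by DESeq2. Complement genes had 1 of 16 tested members called lower, and 5 without 005 sample 3. The called gene was C3, the central complement protein, at 12.6 to 16.6 CPM in CT2A and at 21.8, 451 and 97.4 CPM in 005 (−3.70 ± 0.88, adjusted p = 0.0933 without 005 sample 2). Dendritic cell markers had 2 of 15 called lower, Itgax (CD11c, −2.75 ± 0.66) and Ccl17 (a CCR4 ligand, −1.68 ± 0.42), and 1 without 005 sample 3. Itgax was called in 2 of the 6 fits that left out 1 sample (adjusted p of up to 0.143) and Ccl17 in 1 (up to 0.172). Neutrophil markers had 2 of 10 tested members called lower, Retnlg (−3.63 ± 0.79, called in 2 of these 6 fits) and S100a8 (−2.18 ± 0.58). Their levels were low, S100a8 at 2.44 to 6.85 CPM in CT2A and 5.67 to 27.2 CPM in 005, and the call of S100a8 was lost without 005 sample 3 (adjusted p = 0.126). The neutrophil median was −1.02 with all samples and 0.14 without 005 sample 3. With all samples 4 of the 10 members had a positive log2 fold change. Among these were Cxcr2 (0.67 ± 0.46) and Cxcl1 (0.15 ± 0.24), neither of them called. None of the 3 eosinophil genes tested was called by edgeR, 2 were lower at an unadjusted p under 0.05 and DESeq2 called 1. Prg2, an eosinophil granule protein, had 1 to 3 counts over the CT2A samples together and 0.206, 2.78 and 16.1 CPM in 005, without passing the test (adjusted p = 0.0545).

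Genes of the T cell receptor were low in both models. Their list had 2 of 19 tested members called lower and a median of −1.93, and 9 of its members were lower in each CT2A sample than in each 005 sample, which 13% of all tested genes were. With 005 sample 3 left out 2 members were called, and with 005 sample 2 left out none was. Cd3d, a chain of the receptor complex, was at 7.33, 8.69 and 10.5 CPM in CT2A and at 17.9, 94.5 and 33.5 CPM in 005 (−2.46 ± 0.58, adjusted p = 0.0889 without 005 sample 2). Trbc2, a receptor constant region, was at 12.8, 19.4 and 24.0 CPM in CT2A and at 35.0, 154 and 75.5 CPM in 005 (−2.23 ± 0.51), but naive brain held 27.9 to 56.5 CPM of it, more than CT2A. Cytotoxic effector genes were not called by edgeR (0 of 16, median −1.45) or DESeq2, and 4 were lower at an unadjusted p under 0.05. Ccl5 was at 326 to 536 CPM in CT2A and at 211, 3080 and 402 CPM in 005, and its difference of −1.57 ± 0.74 turned to 0.44 without 005 sample 2. B cell and plasma cell genes were not called by edgeR (0 of 9 tested, median −2.13), with 6 lower at an unadjusted p under 0.05 and 4 called lower by DESeq2. Igkc, the kappa light chain, was at 78.2 to 144 CPM in CT2A and at 58.8, 885 and 855 CPM in 005.

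Of the checkpoint and regulatory T cell list, 16 of 21 genes were tested and 1 was called lower. That gene was Pdcd1lg2, which encodes the PD-1 ligand PD-L2, at 0.310 to 1.59 CPM in CT2A and at 3.50, 59.6 and 8.76 CPM in 005 (−4.45 ± 1.17, adjusted p = 0.0480, and 0.168 without 005 sample 2). Lag3, Tigit, Btla, Foxp3 and Cd80 did not pass the filter on low counts. Ubd, the ubiquitin-like protein FAT10, was at 9.31 to 14.9 CPM in CT2A and at 66.1, 517 and 69.1 CPM in 005 (−4.07 ± 0.93). Atp6v0d2, a proton pump subunit of macrophages and osteoclasts, was at 0 to 0.611 CPM in CT2A and at 9.68, 64.1 and 8.26 CPM in 005 (−6.41 ± 1.19, and −4.82 without 005 sample 2). Ifi202b, an interferon-inducible DNA-binding protein, was at 0.129 to 0.733 CPM in CT2A and at 34.1, 47.4 and 2.71 CPM in 005 (−6.08 ± 1.14), unlike the Ifit genes. Ubd lost its call without 005 sample 2 (adjusted p = 0.0745) and both other genes without CT2A sample 2 or 3. The summed level of the neuron list was 351 to 1707 CPM in CT2A and 1132, 352 and 6033 CPM in 005, highest in sample 3, whereas all 4 genes were highest in 005 sample 2.

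Genes lower in CT2A outside the immune lists included receptors and inhibitors of growth pathways. Fzd1, a Wnt receptor (chr5:4753839-4758035, minus strand), was at 6.11, 7.45 and 4.78 CPM in CT2A, at 147, 225 and 32.0 CPM in 005 and at 7.30 to 13.2 CPM in naive brain. It was lower by −4.46 ± 0.66 (adjusted p = 0.00220) and by −4.90 without 005 sample 3. Chrdl1, a secreted BMP inhibitor, was at 1.47, 1.09 and 0.646 CPM in CT2A and at 22.1, 36.2 and 17.0 CPM in 005 (−4.53 ± 0.47, adjusted p = 8.01e-05). Neurl1b, a ubiquitin ligase that acts on Notch ligands, was at 0.310 to 1.59 CPM in CT2A and at 15.7, 18.2 and 22.1 CPM in 005 (−3.98 ± 0.57). For Chrdl1 and Neurl1b naive brain held 10.005 to 19.2 and 19.7 to 42.1 CPM, so the 005 level was near that of brain. These genes and Tmem108 (−4.57 ± 0.66) were called throughout. Rgs8, a regulator of G-protein signaling, was at 0.621 to 3.54 CPM in CT2A and at 62.1, 72.4 and 22.9 CPM in 005 (−4.82 ± 0.97). It lost its call without CT2A sample 2 or 3 (adjusted p = 0.0766 and 0.0873). Glycam1, a mucin that binds L-selectin, differed by −3.94 ± 0.75, with its highest level of 95.3 CPM in 005 sample 3 and an adjusted p of up to 0.0672 when 1 CT2A sample was left out. Sapcd1 and Msh5, a meiotic recombination gene, lie close together on the minus strand of chromosome 17 (chr17:35025959-35028016 and chr17:35028605-35046745). They moved alike, Sapcd1 at 63.4, 25.8 and 4.06 CPM and Msh5 at 27.0, 11.5 and 1.71 CPM in 005, against 0.310 to 1.42 and 0.611 to 1.55 CPM in CT2A. Whether these are separate changes was not tested. Sapcd1 was called throughout and Msh5 in 2 of the 6 fits. Sapcd1 overlaps the annotated span of Vwa7 on the other strand, and the strand setting of the counting is not given in the sources used here.

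The study's drivers were checked next. Trp53 was at 53.4, 65.0 and 67.3 CPM in CT2A, at 14.6, 20.2 and 19.7 CPM in 005 and at 8.98 to 13.9 CPM in naive brain. It was higher in CT2A by 1.77 ± 0.33 (adjusted p = 0.0102) and called throughout. Of 21 genes in the driver and cell cycle list it was the only one called with all samples, and without 005 sample 3 the list had 1 called higher and 1 lower. Hras was at 6.47, 3.73 and 5.55 CPM in CT2A, at 11.02, 8.93 and 15.7 CPM in 005 and at 15.1 to 29.9 CPM in naive brain (−1.17 ± 0.46, adjusted p = 0.141). No 005 sample exceeded the naive range, and whether reads of the introduced H-ras were counted in this gene is not given in the sources used here. Nras was higher in each CT2A sample without passing the test (1.10 ± 0.31, adjusted p = 0.0598).

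Targets of p53 were not shifted as a list. Of 21 tested, 1 was called higher and none lower, with a median of −0.33. The called gene, Eda2r, a TNF-family receptor, was at 16.7, 14.1 and 6.33 CPM in CT2A and at 0.927, 1.57 and 0.997 CPM in 005 (3.40 ± 0.77). It lost its call without 005 sample 1 or without CT2A sample 1 or 2 (adjusted p of up to 0.0863). Mdm2, the p53 inhibitor and target, overlapped at 27.1 to 39.0 CPM in CT2A and 26.3 to 46.2 CPM in 005. The RAS-ERK feedback list had 1 of 17 tested members called lower in CT2A (median −0.37) and 2 without 005 sample 3. The called gene was Phlda1 (−1.76 ± 0.43), at 9.53 to 21.6 CPM in CT2A and at 54.9, 76.4 and 22.2 CPM in 005, and it kept its call only without 005 sample 3. Dusp6, an ERK phosphatase, was at 48.6, 77.5 and 84.0 CPM in CT2A and at 183, 160.4 and 50.0 CPM in 005. It was not called with all samples (−0.91 ± 0.40, adjusted p = 0.181), and without 005 sample 3 it was lower by −1.26 (adjusted p = 0.0304).

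Receptor tyrosine kinases were divided. Of 23 tested, 2 were higher and 2 lower in CT2A. Pdgfra, the PDGF receptor alpha, was at 44.0, 53.1 and 53.3 CPM in CT2A and at 6.90, 10.1 and 13.8 CPM in 005, below naive brain (13.8 to 21.7 CPM) in 2 of 3 samples. It was higher by 2.28 ± 0.36 (adjusted p = 0.00394) and called throughout. Fgfr1, an FGF receptor, was at 84.3, 92.4 and 81.9 CPM in CT2A and at 35.2, 19.3 and 23.1 CPM in 005 (1.74 ± 0.35, adjusted p = 0.0670 without CT2A sample 2). Erbb3 (−2.53 ± 0.61) and the collagen receptor Ddr1 (−1.80 ± 0.47) were lower in CT2A, and neither call held without 005 sample 3 (adjusted p = 0.0744 and 0.0773). In the Notch list 2 of 15 tested members were called higher and none lower (median −0.40). Jag1, a Notch ligand, was at 68.1, 106 and 124 CPM in CT2A and at 16.5, 17.5 and 6.34 CPM in 005 (2.89 ± 0.40, adjusted p = 0.00150, called throughout). Notch2, a receptor, was at 52.8 to 80.5 and 18.6 to 27.6 CPM (1.501 ± 0.39), and its call was lost in each fit that left out 1 sample (adjusted p of up to 0.183). Hes1, a Notch target, was higher in each CT2A sample without passing the test (1.43 ± 0.44, adjusted p = 0.0780).

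Of the neural stem and glial progenitor list, 32 members were tested, 4 were called lower in CT2A and none higher, and the median was −1.38. In 13 of them every CT2A sample was below every 005 sample (13% of all tested genes), and in 2 every CT2A sample was above (12.6%). The median was −0.69 and 1 member was called when 005 sample 3 was left out. Sox11, a factor of immature neurons and progenitors, was that member, at 10.1, 1.86 and 2.45 CPM in CT2A and at 25.96, 34.8 and 22.1 CPM in 005 (−2.50 ± 0.55, and −2.62 without 005 sample 3). Its adjusted p was 0.117 without CT2A sample 2. Olig2, the factor of the oligodendrocyte lineage, was at 6.11, 2.17 and 2.20 CPM in CT2A and at 9.99, 12.2 and 22.001 CPM in 005 (−2.06 ± 0.49, adjusted p = 0.0767 without 005 sample 3). Sox8 (−2.16 ± 0.48) and Prom1 (CD133, −1.92 ± 0.46) had the same pattern, with the highest 005 level in sample 3. Naive brain held 9.996 to 20.9 CPM of Olig2 and 19.7 to 27.9 CPM of Sox11, so 005 did not exceed brain by much for these genes, and CT2A was below brain. In the neural matrix list 1 of 14 was called lower. This was Cspg5, a brain proteoglycan, at 7.61 to 18.6 CPM in CT2A and at 26.1, 23.2 and 153 CPM in 005 (−2.54 ± 0.64, and −1.06 with adjusted p = 0.173 without 005 sample 3). Tnc, tenascin C, was lower in each CT2A sample (7.57 to 10.4 against 10.6 to 49.1 CPM), at −1.73 ± 0.50 with adjusted p = 0.0661, and at −2.10 with adjusted p = 0.0130 without 005 sample 3.

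**Figure D3:**
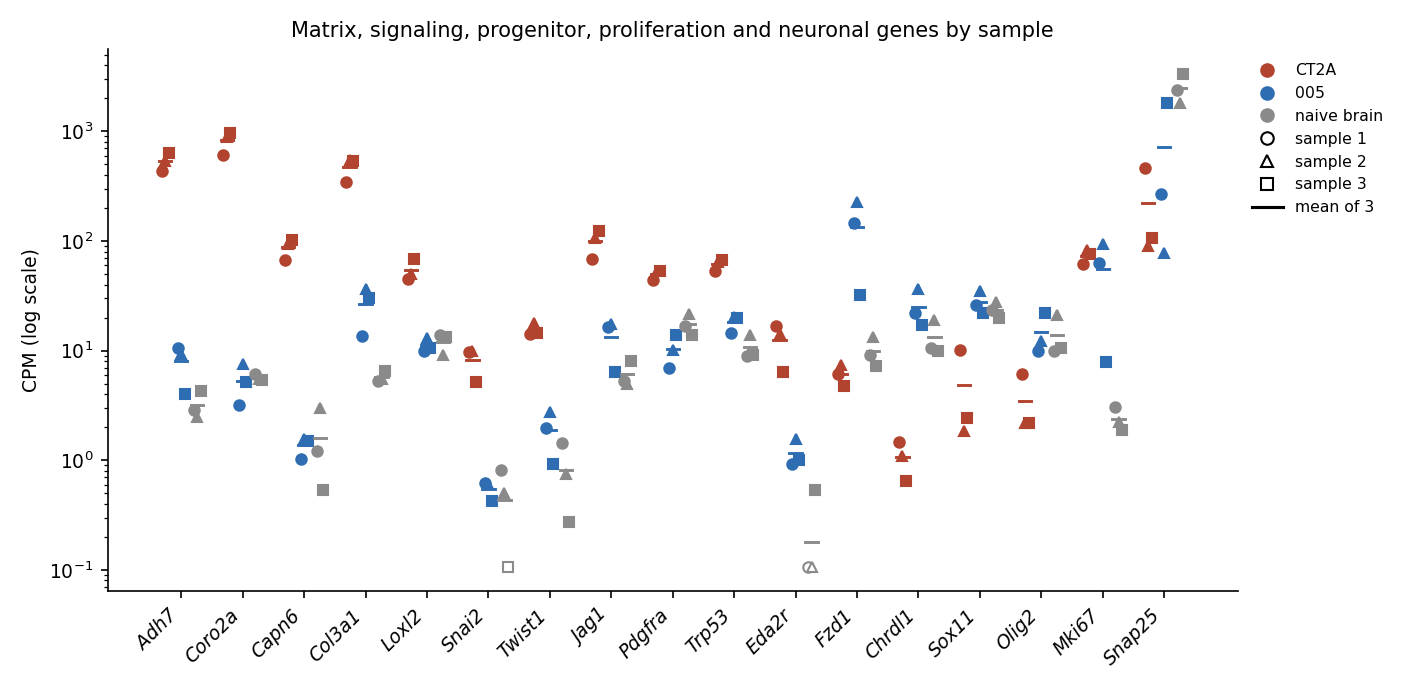
CPM on a log axis of matrix, signaling, progenitor, proliferation and neuronal genes in each CT2A (red), 005 (blue) and naive brain (grey) sample. The symbol gives the sample number, lines mark means of 3 and open symbols mark values of 0. Adh7, Coro2a, Capn6 and Col3a1 lie above 60 CPM in every CT2A sample, and 005 sample 3 (blue square) lies with naive brain for Mki67 and Snap25.

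Mitosis and replication genes were not called by edgeR in either direction (0 of 31), with 4 higher at an unadjusted p under 0.05 and 2 called higher by DESeq2. Their median was 0.49, and 0.11 without 005 sample 3, which held little Mki67. Mki67 differed by 0.41 ± 0.58 (adjusted p = 0.681), and Top2a, a topoisomerase of dividing cells, by 0.48 ± 0.54, with 237 to 384 CPM in CT2A and 277, 394 and 45.4 CPM in 005. Cenpe, a mitotic kinesin, was higher in each CT2A sample (404 to 839 against 21.2 to 324 CPM) without passing the test (adjusted p = 0.102). Of the hypoxia and glycolysis list 3 of 20 genes were called higher and none lower (median 0.01), and 2 without 005 sample 3. Ankrd37, a target of hypoxia-inducible factor, was at 17.8, 58.2 and 82.0 CPM in CT2A and at 7.004, 2.90 and 7.48 CPM in 005, below naive brain (8.47 to 12.4 CPM). It was higher by 3.17 ± 0.56 (adjusted p = 0.00746) and called throughout, but its annotated span overlaps those of Ufsp2 and Lrp2bp. Eno1 and Ldha, the glycolytic enzymes enolase and lactate dehydrogenase A, were higher by 1.32 ± 0.31 and 1.36 ± 0.36. Eno1 was called in 2 of the 6 fits that left out 1 sample (adjusted p of up to 0.160). Ldha was at 1027, 1892 and 2310.0 CPM in CT2A and at 849, 777 and 418 CPM in 005, and its call was lost in 5 of the 6 fits that left out 1 sample (adjusted p of up to 0.209). Xist, the RNA of the inactive X chromosome, was at 319, 235 and 392 CPM in CT2A and at 19.7, 45.9 and 47.4 CPM in 005 (3.07 ± 0.74, adjusted p = 0.0348, and up to 0.117 with 1 sample left out). The Y-linked genes tested did not differ in this way. Kdm5d was at 1.71 to 4.64 CPM in CT2A and 2.47 to 3.26 CPM in 005 (−0.02 ± 0.60). Uty (0.95 ± 0.82) and Eif2s3y (0.50 ± 1.44) were low, overlapped between the models and were not called, and Ddx3y did not pass the filter on low counts. The sex of the hosts and of the implanted lines is not in the labels used here.

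Few markers of vessels and none of normal brain were called. Endothelial and blood-brain barrier genes had 1 of 22 called lower, Ly6c1, at 36.6 to 58.7 CPM in CT2A and at 149, 934 and 80.6 CPM in 005 (−3.13 ± 0.74, adjusted p = 0.0964 without 005 sample 2). Pecam1 (CD31) overlapped, at 77.3 to 85.4 and 84.7 to 162 CPM. The median of 7 tested pericyte and mural genes was −1.40 (−1.53 without 005 sample 3 and −1.49 without 005 sample 2). In 5 of the 7 every CT2A sample was below every 005 sample, which held for 13% of all tested genes. Of the 7 pericyte and mural genes 1 was called lower (1.99% of all tested genes were), and 2 without 005 sample 3. Abcc9 was the called gene (−1.98 ± 0.53, adjusted p = 0.0499), in 1 of the 6 fits that left out 1 sample (adjusted p of up to 0.179), and Rgs5, another pericyte marker, was lower in each CT2A sample without passing the test (−1.40 ± 0.40, adjusted p = 0.0623). The neuron, myelin, astrocyte and choroid plexus lists had no edgeR call, and their medians were −1.52, −1.41, −1.11 and −1.42. At an unadjusted p under 0.05, 5, 5, 2 and 1 of their members were lower, and DESeq2 called 2, 1, 1 and 1 lower. These medians turned to 0.35, 0.25, 0.08 and 0.56 when 005 sample 3 was left out. Snap25, a protein of synaptic vesicle release, was at 466, 90.4 and 106 CPM in CT2A and at 267, 77.9 and 1827 CPM in 005. Ttr, transthyretin of the choroid plexus, was at 3337, 1195 and 627 CPM in CT2A and at 465, 1897 and 13557 CPM in 005. In both genes CT2A sample 1 had the highest CT2A level and 005 sample 3 the highest of all 6.

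**Figure D4:**
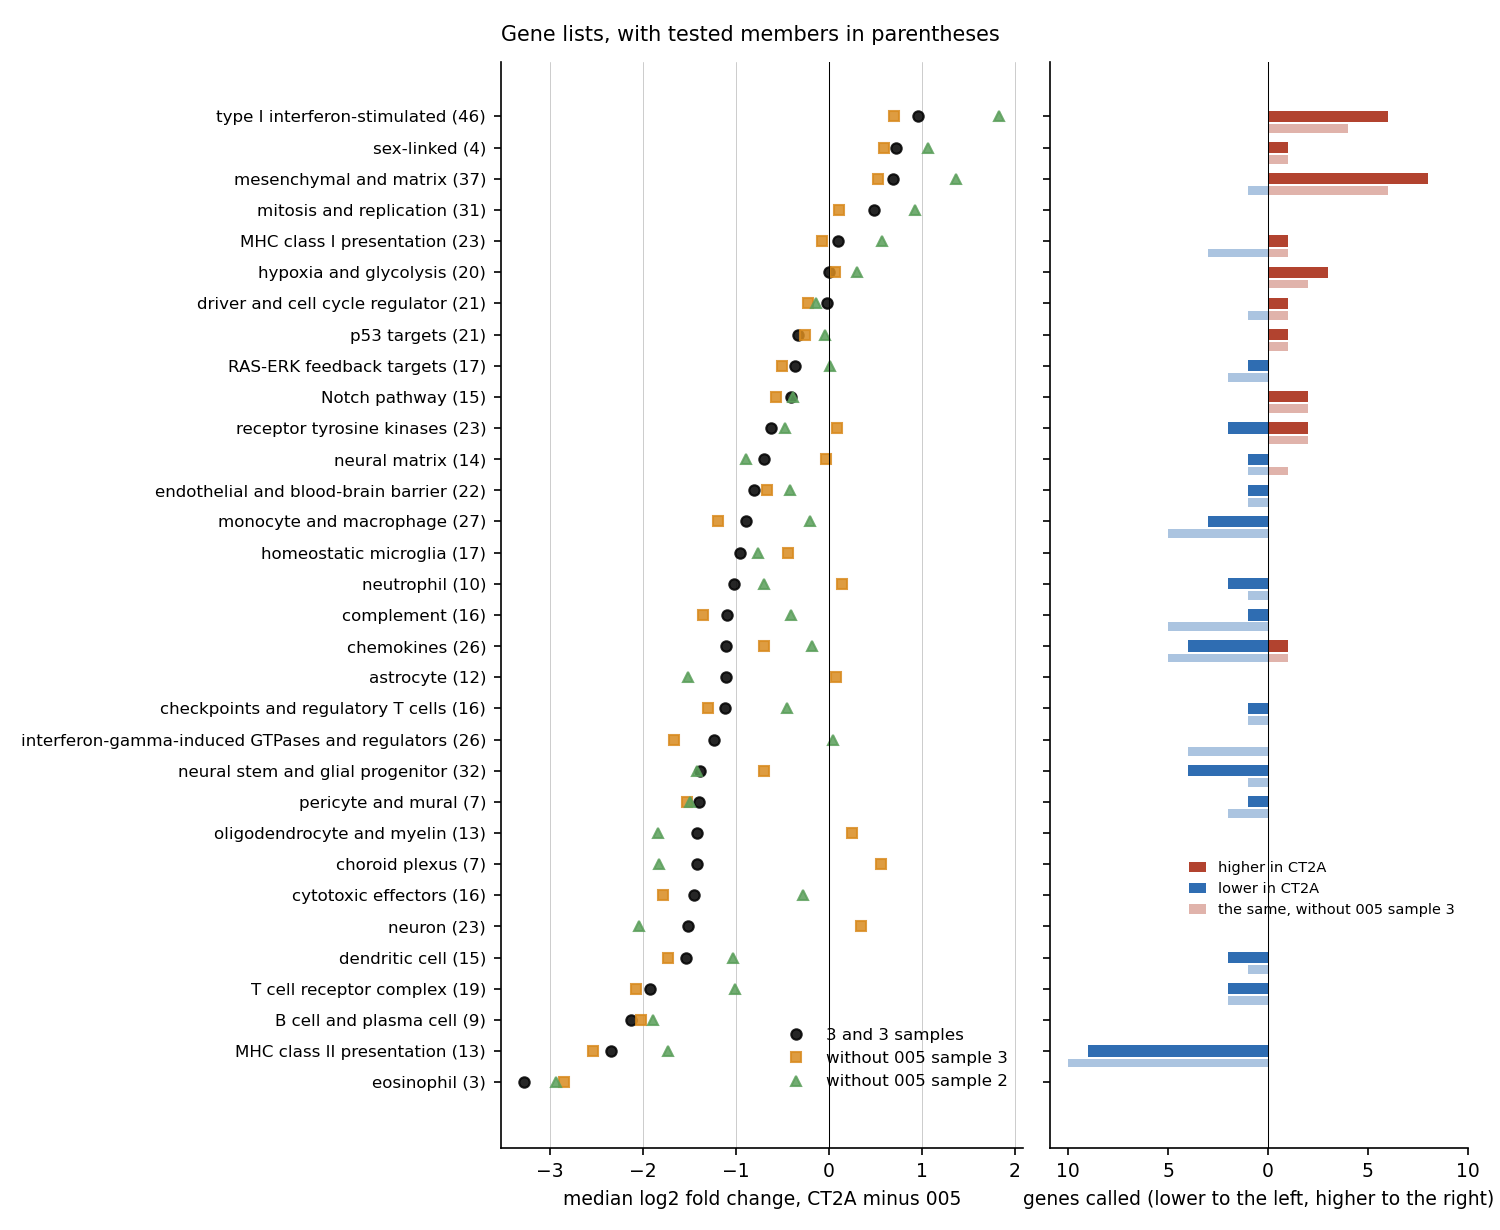
Median log2 fold change of each gene list (left, with all samples and without 005 sample 3 or 2) and the number of its members called (right, lower to the left and higher to the right, pale bars without 005 sample 3). Type I interferon-stimulated and mesenchymal genes lie above 0 and MHC class II genes below 0 with either 005 sample left out. The neuron, myelin, astrocyte, choroid plexus and neutrophil medians, among others, cross 0 without 005 sample 3.

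Some genes were not called with all samples but were called when 005 sample 3 was left out. Of those higher in CT2A, Gulp1, an adaptor for engulfment of dying cells, was at 34.1, 58.7 and 40.8 CPM in CT2A and at 1.03, 0.604 and 13.7 CPM in 005, and its log2 fold change went from 3.08 (adjusted p = 0.0712) to 5.75 (adjusted p = 0.00118). The homeobox gene En1 and the polycomb-group gene Scml2 went from 4.03 to 7.24 and from 3.41 to 6.86, each with its highest 005 level in sample 3. Of those lower in CT2A, Apol6, an apolipoprotein L, was at 1.71 to 3.1 CPM in CT2A and at 7.83, 85.8 and 4.63 CPM in 005. Lama2, a laminin chain, was at 0.621 to 1.71 CPM in CT2A and at 40.1, 4.10 and 3.42 CPM in 005, and was also called without 005 sample 2 (−4.24, adjusted p = 0.0395). Cma1, a mast cell protease, was at 3.73 to 10.1 and at 10.1, 154 and 3.70 CPM. In each of these 1 of the 005 samples held most of the summed level, and for Cma1 the log2 fold change was −0.22 without 005 sample 2. For Gulp1, En1 and Scml2 the CT2A values lay above all 005 values in both cases.

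The called genes were unevenly placed on the chromosomes, which was described after the values were seen and was not tested. Over 14366 protein-coding genes on chromosomes 1 to 19 and X, 1.91% were called higher and 2.25% lower. Chromosome 14 held 2 higher and 39 lower among 512 genes (7.62% lower), and its median log2 fold change was −0.84, or −0.59 without 005 sample 3. The median of all these genes was −0.28 and −0.04. Chromosome 17, which holds the MHC genes, had 5 higher and 37 lower (5.48% lower, median −0.42), chromosome 15 had 9 and 30 (5.3% lower, −0.60), chromosome 10 had 5 and 30 (4.39% lower, −0.66), chromosome 8 held 37 and 11 (−0.01), and chromosome 3 held 33 and 6 (0.13). Levels in each sample were also set against the mean of the GL261 and Mut3 tumors, as the median over expressed genes of a chromosome after centering on the autosomes of that sample. On chromosome 14 the CT2A samples were at −0.39, −0.61 and −0.60 and the 005 samples at −0.03, 0.13 and 0.10, over 287 genes. On chromosome 10 the CT2A samples were within 0.02 of 0 and the 005 samples at 0.51, 0.50 and 0.20. Chromosome 8 gave −0.34 and −0.35 in 005 samples 1 and 2 and −0.03 in sample 3. Chromosome 19, which holds the Ifit genes, was at 0.39, 0.51 and 0.57 in CT2A and at 0.13, 0.18 and 0.14 in 005. The third 005 sample lay nearer to 0 than the other two on chromosomes 8 and 10 but not on 14. Neighboring genes and genes of 1 cell type are not independent, and DNA copy number was not analysed here.

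**Figure D5:**
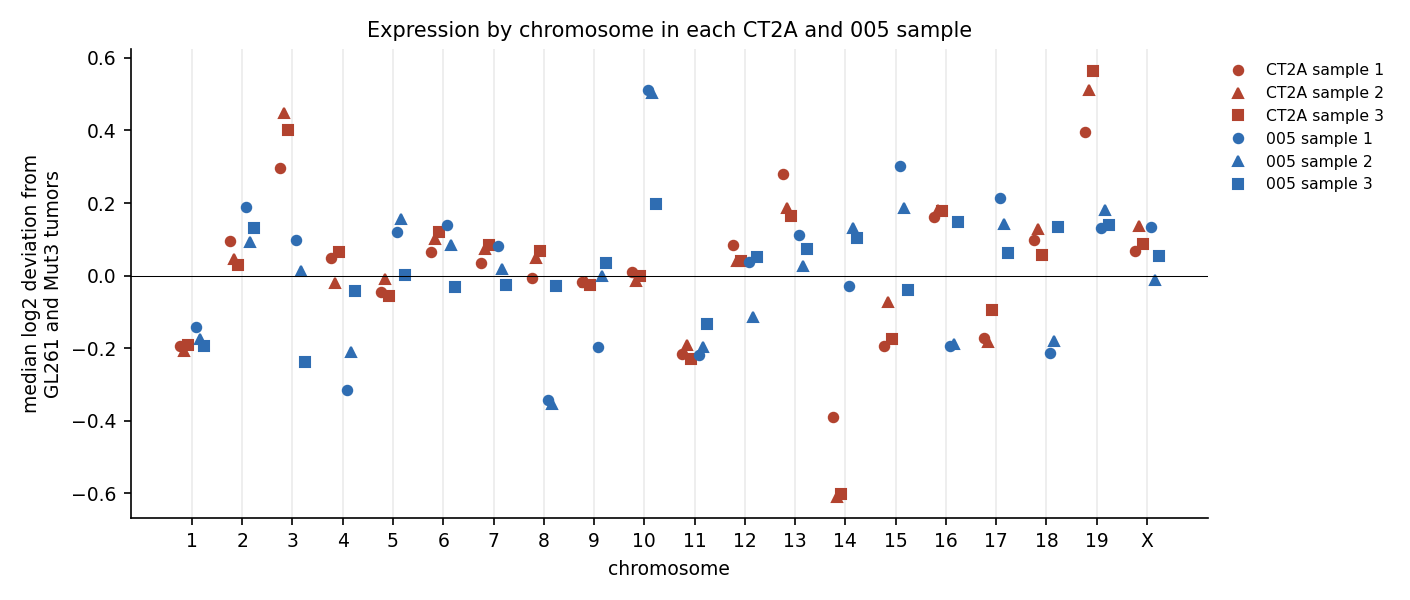
Median log2 deviation of each CT2A (red) and 005 (blue) sample from the mean of GL261 and Mut3 tumors (vertical axis) for the expressed protein-coding genes of each chromosome (horizontal axis), centered on the autosomes of the sample. CT2A lies lowest on chromosome 14 (−0.39 to −0.61) and 005 samples 1 and 2 lie highest on chromosome 10 (0.51 and 0.50).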

How the data were processed

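RNA was sequenced from 15 samples (3 mice per group, separate animals per the labels), and groups were taken from the labels. The authors aligned reads with STAR v2.4.2a, and the submitters' processing notes name mm10, Salmon and DESeq2 1.18.1 without a role. The quantifier settings and the strand setting are not given in the sources used here. The authors deposited expected counts per gene, not normalized between samples, and TPM values, which are scaled to gene length and to a common total. Dividing count by TPM gave 1 gene factor times 1 library factor (4644 genes above 50 counts throughout, log2 residuals of at most 9.6e-10), so both tables carry 1 measurement. Of 46679 gene IDs, 46269 were matched to GENCODE M21 (GRCm38).

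Rounded expected counts were tested by edgeR 4.0.16 under R 4.3.3 (filterByExpr, TMM, quasi-likelihood test, all 15 samples in 1 fit with a mean per group, contrast CT2A minus 005, Benjamini-Hochberg adjustment over all tested genes). CPM values are TMM-scaled, and the SE is the log2 fold change divided by the square root of F. A floor of 3 counts equals 0.214 to 0.466 CPM. Intervals and floors cover counting error only. DESeq2 1.42.0 and limma 3.58.1 were alternatives, as were other scalings and filters, fits of fewer samples and a replicate block. The code was tested on simulated data.

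The members, the 32 gene lists (645 genes) and the tests were chosen with earlier results of these data known. Named genes were, in each direction, the 15 protein-coding genes with the largest change that were called with and without 005 sample 3, did not overlap between groups and averaged 3 or more in log2 CPM in the higher one, then up to 4 called and up to 4 of the highest genes of each list, the drivers, Ptprc and Mki67, and up to 5 genes in each direction called without 005 sample 3 but not with all samples. Of the 79 named genes that were called, 32 overlap the annotated span of another gene, 8 of them of a protein-coding gene. These 8 are Hoxc10 (Hoxc5), Sapcd1 (Vwa7), Rtp4 (Masp1), Ccl25 (Elavl1), Cxcr6 (Fyco1), Ankrd37 (Ufsp2 and Lrp2bp), Xist (Gm26992) and Ciita (Dexi). With the strand setting unknown, part of their reads may belong to the neighbor. Lists were described by counts and medians. RefSeq promoter windows were used for sequence. Results for some genes are not reported here.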

Additional observations from a re-analysis of the deposited data

How the results depend on the processing

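The counts of called genes varied between fits. With only the 6 CT2A and 005 samples in the fit, 100 genes were called higher and 8 lower in CT2A, and the same fit without 005 sample 3, chosen after seeing the data, called 365 and 275. Leaving out 1 sample at a time gave 142 to 390 genes higher and 37 to 400 lower, the lowest values without CT2A sample 2 or 3. The DESeq2 Wald test, which made a larger share of false calls than edgeR on simulated data, called 840 and 935. Limma on log2(TPM + 1) called 217 higher and 260 lower, and a change of at least 4-fold was met by 225 and 184. Without any filter on low counts 417 and 504 genes were called, and with at least 10 counts in every sample 321 and 328. At an unadjusted p under 0.05, 1551 genes were higher and 2713 lower.

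Sample numbers shared by the models did not mark shared animals or days in the labels. Same-numbered samples correlated by −0.23, 0.26 and −0.24 over genes in their deviations from the group means, and CT2A sample 1 correlated best with 005 sample 3 (0.47). Such deviations are tied to one another within a group, so whether the numbers mark shared days or batches is unknown. Adding that number as a replicate block gave 245 genes higher and 148 lower.

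None of the 79 named genes that were called changed direction under the alternatives that gave it a value, which the filter of at least 10 counts in every sample did for 34 of them. The DESeq2 Wald test called all 79, and the fit of only the 6 samples called 22 of them. Among the named genes, those that changed direction were not called with all samples. Over all genes, 3 not called with all samples were called without 005 sample 3 in the opposite direction. Over the fits that left out 1 sample, Cxcl10 ran from −1.26 to 1.34 and Ccl5 from −2.07 to 0.44, the highest without 005 sample 2, Mki67 from −0.071 to 1.05, the lowest without 005 sample 3, and Snap25 from −2.88 to 0.37 and Ttr from −2.54 to 0.56, the highest without 005 sample 3. With only CT2A and 005 in the fit and 005 sample 3 left out, Mki67 was at −0.055, Snap25 at 0.37 and Ttr at 0.57. The cause of these changes was not tested. Genes under about 1 CPM are near the counting floor.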
